A study of Mus musculus with 6 samples.

Results

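The stretch of mouse chromosome 5 from Il6 to Lcorl was followed gene by gene in bone marrow cells of 2 strains. Its members were 54 genes chosen by position, of which 53 were matched to 118 of the 45037 probe sets on the arrays. Cd38, the remaining gene, was not analysed here. Every sample came from young adult female mice aged 6 to 16 weeks, and cells bearing mature blood lineage markers had been sorted away to enrich for stem and progenitor cells. One group had the genetic background C57B/L6 and the other B.D, labelled B.D(Chr5), with 3 arrays each and no treatment. The labels name chromosome 5 for the second strain but give neither the ends of a segment nor its donor. They call the samples biological replicates without saying whether each was 1 mouse or a pool. The p-values below therefore speak only of the spread among these arrays, which may not be that between single mice.

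Genes that lie side by side on a chromosome need not act together, and this stretch holds genes of many unrelated kinds. It includes both subunits of the mitochondrial trifunctional protein of fatty acid oxidation, several genes of chromosome segregation, and the surface proteins prominin-1, CD38 and BST1. The last of these are related enzymes that make cyclic ADP-ribose, and all 3 surface proteins are used to mark subsets of blood or stem cells. When a piece of chromosome from one inbred strain is carried on the background of another, genes in the piece bring the donor's alleles, so expression differences can be looked for along it in order.

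Lcorl, at the far end of the stretch, was the 1 gene that passed the threshold, and the upstream sequence of its annotated starts is shown for that reason. Lcorl encodes a DNA-binding protein known from studies of body size. RefSeq places 2 starts on the minus strand of GRCm38.p6, with the 250 bases before them at chr5:45857541-45857790 and chr5:45856553-45856802. The window upstream of Hadha is shown as a contrast, and that of Hadhb is not printed. Hadha and Hadhb start 273 bases apart on opposite strands and their windows share 228 bases, and neither gene passed. The Hadha window lies at chr5:30154981-30155230 on the minus strand. Capitals mark GGGCGG (the GC box), CCAAT (the CCAAT box) or TATAAA (the TATA box) on either strand, none of which overlap each other here. The reference sequence is that of C57BL/6J, and the sequence carried by B.D(Chr5) was not used here.
Lcorl, first start: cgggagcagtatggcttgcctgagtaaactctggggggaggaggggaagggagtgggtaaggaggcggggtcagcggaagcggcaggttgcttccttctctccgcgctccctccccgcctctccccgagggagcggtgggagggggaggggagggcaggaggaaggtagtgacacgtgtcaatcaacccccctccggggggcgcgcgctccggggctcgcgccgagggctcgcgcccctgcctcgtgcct
Lcorl, second start: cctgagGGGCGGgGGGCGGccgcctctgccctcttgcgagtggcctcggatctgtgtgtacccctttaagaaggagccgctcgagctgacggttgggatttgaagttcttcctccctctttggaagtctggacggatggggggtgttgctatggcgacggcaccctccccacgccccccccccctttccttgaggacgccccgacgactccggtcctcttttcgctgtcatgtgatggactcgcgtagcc
Hadha: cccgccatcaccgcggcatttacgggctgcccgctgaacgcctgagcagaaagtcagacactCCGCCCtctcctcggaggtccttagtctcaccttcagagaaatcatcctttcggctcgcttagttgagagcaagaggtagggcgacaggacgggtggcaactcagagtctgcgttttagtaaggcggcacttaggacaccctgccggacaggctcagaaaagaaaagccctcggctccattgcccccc

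The first Lcorl window held none of the 3 motifs and 21 CG dinucleotides. The second held the GC box at 2 places and 19 CG dinucleotides, and the Hadha window held it once, on the other strand, and had 16. Windows were found for 47 of the genes, 60 windows in all. A GC box occurred in 71.7% of them against 32.7% of all 32851 upstream windows of this length, a CCAAT box in 46.7% against 33.8%, and a TATA box in 1.67% against 12.4%. The median count of CG dinucleotides was 18.5 in the members' windows and 6 in all windows, and the sets were not matched for it. Such matches describe letters and not bound sites, and some genes have several windows, some of which nearly coincide.

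On the arrays, levels are MAS5 signals, whose scale is set per array and does not compare transcript amounts between genes. A probe set was taken as above background where it exceeded the 95th percentile of the bacterial control probe sets on that array, a level that lay between 21.8 and 38.0. Between 63.3% and 71.2% of all probe sets exceeded it. Of the members' 118 probe sets, 100 were above it on all 6 arrays, covering 51 of the genes, and 6 were above it on none. Tests were run on log2(signal + 16) for probe sets in the brighter 50% on the arrays, with mean signals of about 66.7 or more. Of the members, 94 probe sets of 48 genes were bright enough, and Il6, Mapre3, Fgfr3, Bst1 and Ldb2 were not. A log2 change below is B.D(Chr5) minus C57B/L6 on that scale, which understates changes of dim probe sets.

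**Figure D1:**
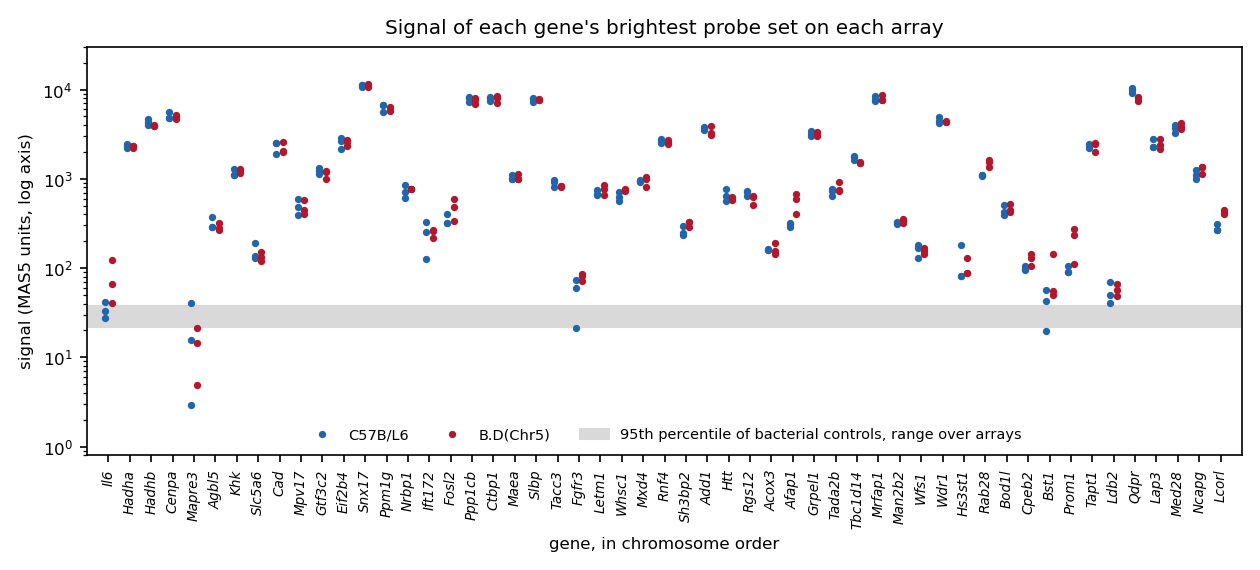
Signal on each array (log axis, MAS5 units) of the brightest probe set of each of the 53 genes in chromosome order, with 3 points per strain; the grey band spans the control level from 21.8 to 38.0. The points of both strains lie together for most genes, with Snx17 highest at a mean of 11088 in C57B/L6, while Mapre3 lies in or below the band on all but 1 array.

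The question was which genes of the stretch differed between the strains. A probe set was called where its limma p, adjusted by Benjamini-Hochberg over all 22518 tested probe sets, was under 0.05. Of the 94, 1 was called (1.06%), against 0.182% of all tested. At an unadjusted p under 0.05 there were 10 (10.6%), 5 higher and 5 lower in B.D(Chr5), against 4.75% of all. The 3 arrays of one strain lay wholly above those of the other for 12 probe sets (12.8%), against 9.40% of all. Log2 changes were above 0 for 46 of the 94, and 50.1% of all tested probe sets were above 0. Taking the brightest probe set of each gene, 20 genes were higher and 28 lower, with a median of -0.0055 beside -0.0084 for all 10739 named genes, and 38 of the 48 lay within 0.2 of 0. With single arrays left out, the number of higher genes ran from 22 to 28, and it was 25 when B.D(Chr5) replicate 1 was omitted, 28 when C57B/L6 replicate 1 was and 27 when C57B/L6 replicate 3 was. SEs of the 94 log2 changes ran from 0.063 to 0.31, with a median of 0.14.

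**Figure D2:**
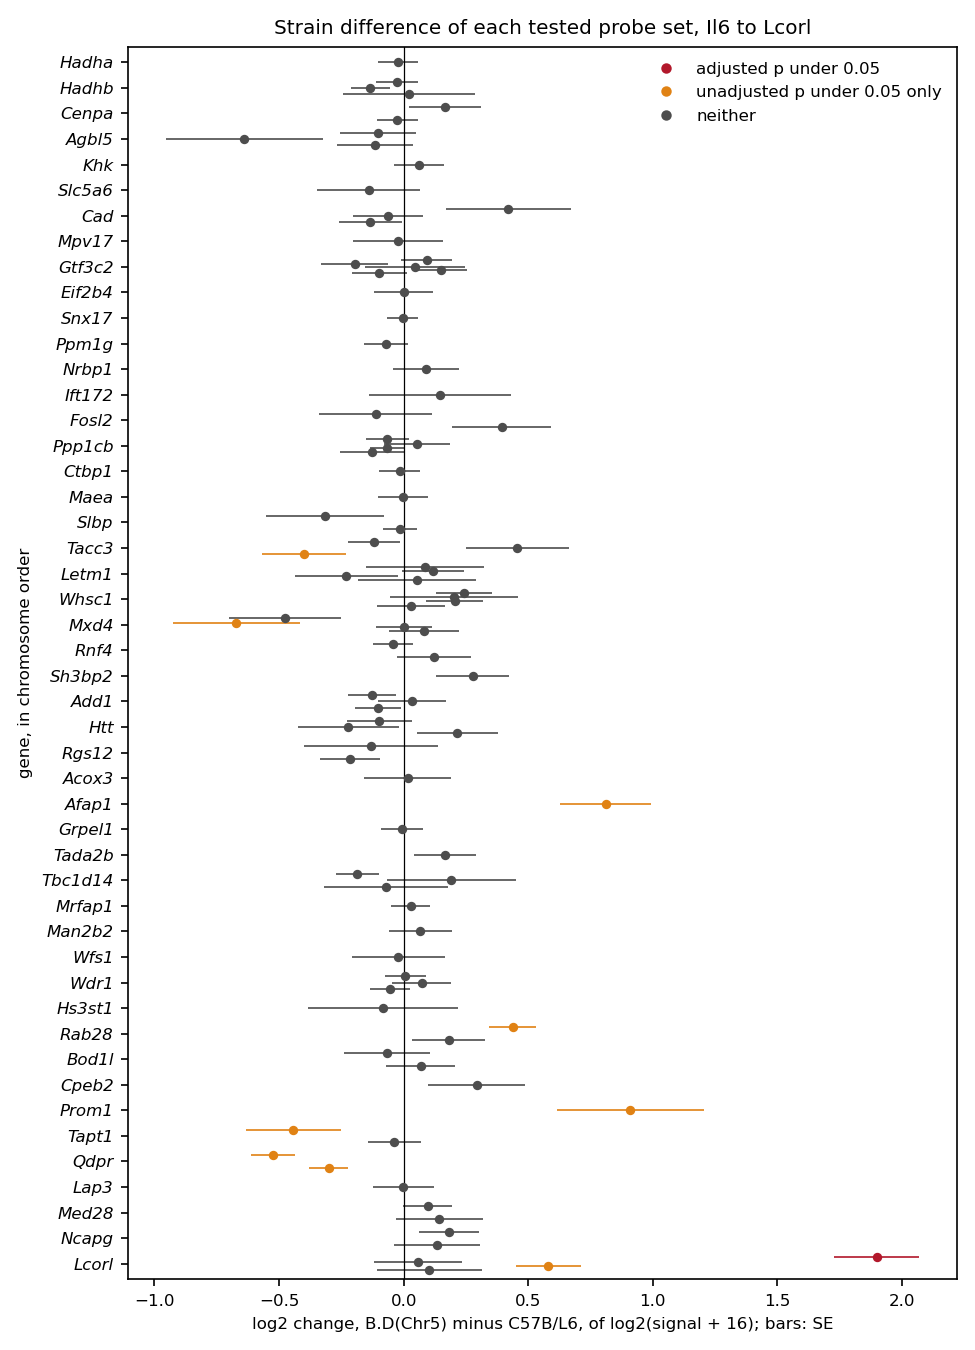
Log2 change with its SE for each of the 94 tested probe sets, with the genes from top to bottom in chromosome order. Most points lie close to 0, 1 Lcorl probe set lies at 1.90, and the probe sets at an unadjusted p under 0.05 first appear at Tacc3.

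Lcorl was higher in B.D(Chr5) on 1 of its probe sets by a wide margin. On 1439272_at the C57B/L6 arrays read 98.3, 115 and 90.0 and the B.D(Chr5) arrays 376, 396 and 493. The strains did not overlap, and all 6 arrays were above background. The means were 101 ± 12.9 and 422 ± 62.9 (SD, n = 3 each), 4.17-fold apart, and the log2 change was 1.90 ± 0.17 (SE; limma adjusted p = 0.00129). With any single array left out it lay between 1.78 and 1.98. In bulk RNA such as this, a change in the number of cells of a type and one in RNA per cell cannot be told apart. A further Lcorl probe set, 1455686_at, read 264, 266 and 308 in C57B/L6 and 426, 400.1 and 450.3 in B.D(Chr5), again without overlap. Its log2 change was 0.58 ± 0.13 (SE), which did not pass (limma adjusted p = 0.336).

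The other tested Lcorl probe sets did not separate the strains. The values of 1455260_at were 159.9, 157 and 158 against 137, 176 and 187, a log2 change of 0.057 ± 0.18 (SE). Those of 1456712_at were 190.4, 233 and 237 against 212, 189 and 329, a log2 change of 0.10 ± 0.21 (SE). Of the untested pair, 1458352_at was close to background, at 39.3 ± 6.99 and 42.3 ± 5.96, and 1433294_at was below it on all arrays. All 4 tested probe sets had a positive log2 change, but the sizes ranged from 0.057 to 1.90, so the probe sets of this gene disagree about how much it differed. The sequences of the probes and their places in the transcript were not used here, nor was the sequence carried by B.D(Chr5).

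**Figure D3:**
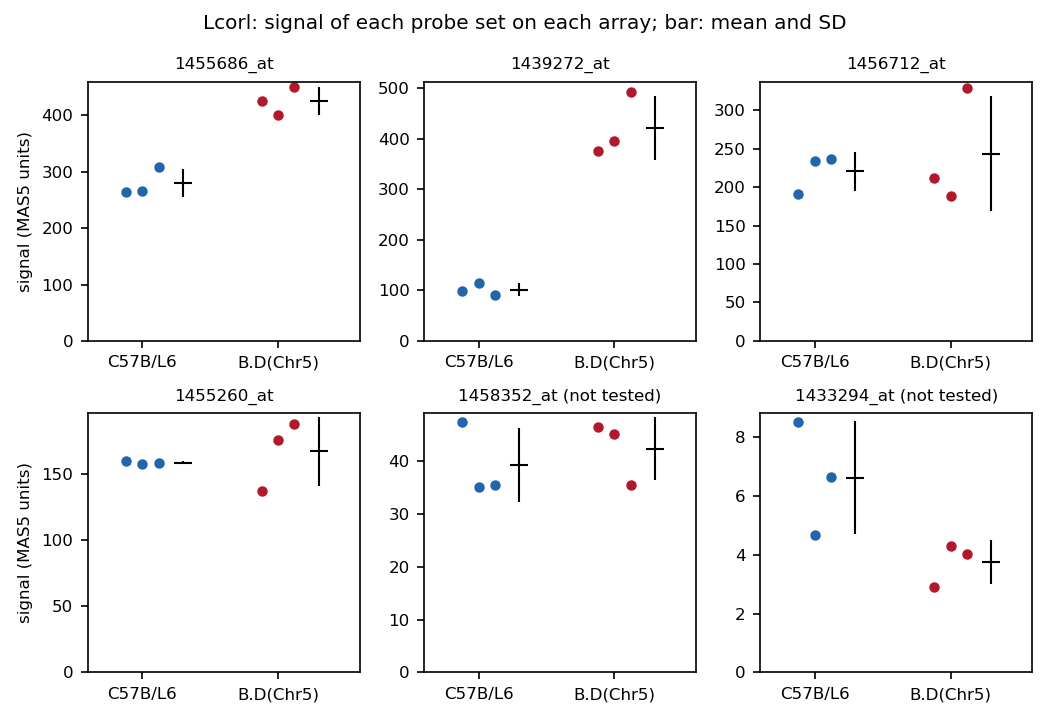
Signal (MAS5 units, axes from 0) of the 6 Lcorl probe sets on each array, with points for the 3 arrays of each strain and a bar for the mean and SD. The strains stand apart for 1439272_at, with means of 101 and 422, and for 1455686_at, and overlap for the other brighter probe sets.

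Among the other genes of transcription and chromatin, no probe set passed. With Lcorl, the group held 10 genes, 9 of them tested, of which 6 were higher and 3 lower on the brightest probe set. The corepressor gene Ctbp1 read 7972, 7429 and 8337 in C57B/L6 and 7116, 8391 and 7991 in B.D(Chr5), which overlap (log2 change -0.016, SE 0.082). Med28, a subunit of Mediator, read 3675, 3976 and 3234 against 4220.3, 3827 and 3582, with a log2 change of 0.097 ± 0.098 (SE). Both sets of arrays cover much the same range.

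Whsc1, now named Nsd2, encodes a histone methyltransferase. All 4 of its tested probe sets had positive log2 changes, from 0.031 to 0.24, and 1428827_at did not overlap between the strains, at 636 ± 69.6 and 753 ± 24.9 (SD, n = 3 each). Mxd4, a partner of MAX that opposes MYC, had probe sets that differ in direction. Its dim probe set 1422575_at read 103, 79.0 and 98.7 in C57B/L6 and 72.4, 39.4 and 49.6 in B.D(Chr5), a log2 change of -0.67 ± 0.25 (SE; limma adjusted p = 0.941; -0.43 with a pseudocount of 64), whereas its brightest had a log2 change of 1.4e-04. The AP-1 gene Fosl2 had 0.39 and -0.11 on its 2 probe sets. Gtf3c2, Rnf4 and Tada2b had log2 changes of -0.098, -0.042 and 0.17 on their brightest probe sets, and the adaptor gene Ldb2 was too dim to be tested.

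Qdpr, the gene with the next smallest p-value after Lcorl, encodes dihydropteridine reductase, which regenerates the tetrahydrobiopterin cofactor. Its probe set 1423664_at read 2946, 3008 and 2733 in C57B/L6 and 2177, 2018 and 1838 in B.D(Chr5). Every B.D(Chr5) array lay below every C57B/L6 array. The means were 2896 ± 144 and 2011 ± 169.7 (SD, n = 3 each), and the log2 change of -0.52 ± 0.089 (SE) missed the threshold (limma adjusted p = 0.0958). The brighter 1437993_x_at also did not overlap, at 9827, 10322 and 9083 against 8119, 8242 and 7353. Its log2 change was -0.30 ± 0.077 (SE; limma adjusted p = 0.507).

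The remaining genes of mitochondria and metabolism, 9 besides Qdpr, had log2 changes between -0.14 and 0.12 on their brightest probe sets. Hadha, the alpha subunit of the trifunctional protein, read 2307, 2236 and 2469 in C57B/L6 and 2358, 2209 and 2330.2 in B.D(Chr5), with a log2 change of -0.023 (SE 0.080). For Hadhb, the beta subunit, the brightest probe set read 4013, 4666 and 4356 against 3924, 4046 and 3889 (log2 change -0.13, SE 0.078). The 2 head-to-head genes thus overlapped between strains on these probe sets. Khk, the kinase that starts fructose breakdown, had 0.063, Slc5a6, a vitamin transporter, -0.14, and Mpv17, an inner membrane protein of mitochondria, -0.022. For Letm1, Grpel1, Acox3 and Wfs1 the values were 0.12, -0.0067, 0.016 and -0.021. None of these passed, with the tool and threshold above, and none but Qdpr was at an unadjusted p under 0.05.

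Of the haematopoietic surface and signalling genes, Prom1 had the largest log2 change on the arrays. Prom1 encodes CD133, a membrane protein of protrusions. Its tested probe set read 90.7, 106 and 91.0 in C57B/L6 and 236, 111 and 273 in B.D(Chr5). The strains did not overlap, but B.D(Chr5) replicate 2 was close to C57B/L6. The means were 95.8 ± 8.63 and 207 ± 85.0 (SD, n = 3 each), with a log2 change of 0.91 ± 0.29 (SE; limma adjusted p = 0.834). With single arrays left out the log2 change ran from 0.68 to 1.27. The top value, with a limma adjusted p of 0.0529, was without B.D(Chr5) replicate 2, the lowest array of the higher strain.

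Bst1, the ADP-ribosyl cyclase gene next to Cd38 and known from bone marrow stroma and myeloid cells, was near background and not tested. Its probe set 1449454_at read 42.4, 19.8 and 57.2 in C57B/L6 and 55.3, 49.3 and 144 in B.D(Chr5), and 1449453_at read 33.2, 55.3 and 53.5 against 60.6, 32.7 and 118. On both, B.D(Chr5) replicate 3 was the highest array and the strains otherwise overlapped. That array also had the highest control level, 38.0. The interleukin gene Il6 read 42.0, 27.8 and 33.0 in C57B/L6 and 124, 40.4 and 65.8 in B.D(Chr5), overlapping at the lower end. In a fit without the filter on dim probe sets its log2 change was 0.79 ± 0.37 (SE; limma adjusted p = 1.00). The growth factor receptor gene Fgfr3 read 74.2, 21.1 and 59.4 against 85.1, 72.1 and 82.2 on 1 probe set, with overlap. On its other the strains were at 29.1 ± 21.4 and 8.94 ± 6.59 (SD, n = 3 each), with no B.D(Chr5) array above background, so the means of this pair of probe sets go opposite ways.

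Marker genes of cells that such a preparation can hold were also uneven over the arrays. Genes of granulocyte-monocyte progenitors, 9 measured of 10, summed to between 64717 and 69671 in C57B/L6 and to 101451, 72097.5 and 98772 in B.D(Chr5) replicates 1, 2 and 3. That is the order low in replicate 2 and high in 1 and 3 which Prom1, Afap1 and Il6 also showed. Genes of the B lymphoid lineage, 9 of 10, summed to between 3148 and 3965 in C57B/L6 and to 4346, 3797 and 9321 in B.D(Chr5), the last being the array with the highest Bst1. Maturing neutrophil genes, 9 of 10, ran from 44365 to 49533 in C57B/L6. In B.D(Chr5) they summed to 53187, 54051 and 74133, also highest on the array with the highest Bst1. Stem and multipotent progenitor genes, 10 of 12, ran from 16890.0 to 19622 in C57B/L6 and from 15477 to 17699.8 in B.D(Chr5), and 9 of the 10 had a negative log2 change. The other, Slamf1, was called and rose from a mean of 304 to 696 (log2 change 1.15, limma adjusted p = 0.0361), the 1 call in any of the lists.

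The lists of stroma, bone and endothelium (9 of 10 measured) ran from 1183 to 3393 and from 2646 to 4883, of T and NK cells (9 of 10) from 4655 to 7023 and from 3971 to 5648, and of erythroid cells (8 of 10) from 40707 to 49849 and from 40185.5 to 52044. In all 8 lists, cell cycle included, 0 measured genes were at or below background on every array. That asks for only 1 array above it, and some genes were below it on others. Hba-a1 read 12.8, 0.91 and 20.0 in B.D(Chr5), each below background. Of the stem and multipotent progenitor genes, Kit was at 4925 and 4559 and Cd34 at 3933 and 3527 (means of C57B/L6 and B.D(Chr5)). Procr was the dimmest of that list, at 115 and 99.9. The maturing neutrophil gene S100a8 was at 16602 and 19059, so such levels do not show how pure the preparation was. The part of these marker genes in the values of Prom1, Afap1, Il6 and Bst1 was not tested.

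Besides Prom1, no gene of the surface and signalling group had a tested probe set at an unadjusted p under 0.05 in limma. Ppp1cb, a catalytic subunit of protein phosphatase 1, read 7255, 8347 and 8015 in C57B/L6 and 7555, 6879 and 8143 in B.D(Chr5) (log2 change -0.066, SE 0.086). The pseudokinase gene Nrbp1 read 713, 609 and 862 against 772, 765 and 765, with a log2 change of 0.089 ± 0.13 (SE). For the adaptor gene Sh3bp2 the log2 change was 0.28 (SE 0.15) and for Rgs12, a regulator of G protein signalling, -0.22 (SE 0.12).

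Afap1 and Rab28 stood out among the 12 genes of traffic, cilia, glycans and cytoskeleton, although neither passed. Afap1, which links actin filaments to Src signalling, read 292, 301 and 317 in C57B/L6 and 599, 402 and 668 in B.D(Chr5) on its 1 tested probe set. The strains did not overlap and B.D(Chr5) replicate 2 was again the lowest of its strain. The log2 change was 0.81 ± 0.18 (SE; limma adjusted p = 0.329). With single arrays left out it ran from 0.67 to 1.02, the top value being without B.D(Chr5) replicate 2. Dropping the lowest array of the higher strain raises the difference by itself. In that fit Afap1 passed (limma adjusted p = 0.0246), the 1 further call among the members when single arrays were left out.

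Rab28, a small GTPase of ciliated and photoreceptor cells, read 1107, 1080.3 and 1114 in C57B/L6 and 1529, 1611 and 1358 in B.D(Chr5). These groups did not overlap, with a log2 change of 0.44 ± 0.095 (SE; limma adjusted p = 0.289). Its dimmer probe set had a log2 change of 0.18 ± 0.15 (SE). Tapt1, a membrane protein gene of ciliary function, read 147, 216 and 200.3 against 130.5, 141 and 125 on 1435150_at, a log2 change of -0.44 (SE 0.19, limma adjusted p = 1.00). Its brighter probe set had -0.038, at 2363 ± 133 and 2312 ± 293 (SD, n = 3 each).

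**Figure D4:**
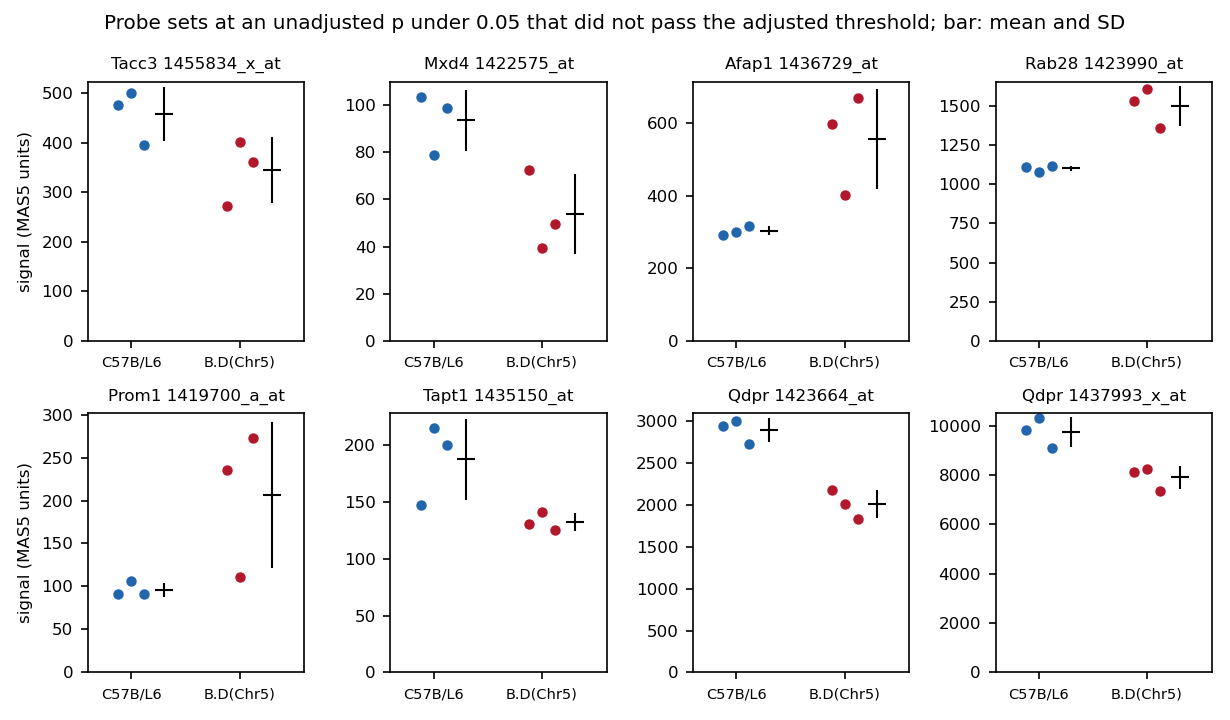
Signal (MAS5 units, axes from 0) on each array of the 8 probe sets of genes other than Lcorl at an unadjusted p under 0.05, none of them called, with a bar for the mean and SD of each strain (n = 3). Qdpr, Mxd4 and Tapt1 lie lower and Afap1, Rab28 and Prom1 higher in B.D(Chr5) without overlap, and the B.D(Chr5) points of Afap1 and Prom1 are widely spread.

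The other genes of this group had no probe set at an unadjusted p under 0.05 in limma. Snx17, a sorting nexin of endosomes and the gene with the highest signal of the stretch, read 11265, 11202 and 10797 in C57B/L6 and 10794, 11454 and 10921 in B.D(Chr5). Its log2 change of -0.0044 had the smallest SE of the 94, 0.063. Mrfap1 read 7768, 8423 and 7494 against 8738, 7731 and 7691 (log2 change 0.028, SE 0.079). The actin disassembly gene Wdr1 had -0.055, Add1, an adducin of the membrane skeleton, -0.10, Htt, which encodes huntingtin, -0.098 and Ift172, a carrier of ciliary transport, 0.15. Man2b2 and Hs3st1, of glycan handling, had 0.067 and -0.083, and Tbc1d14, a regulator of autophagy, had -0.19, with its arrays not overlapping at 1736 ± 104 and 1523 ± 35.0 (SD, n = 3 each; limma adjusted p = 1.00).

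Genes of cell division and DNA replication overlapped between the strains on their brightest probe sets. Slbp, which binds the stem-loop of histone messages, read 7913, 8084 and 7279.8 in C57B/L6 and 7713, 7572 and 7742 in B.D(Chr5) (log2 change -0.014, SE 0.068). Cenpa, the histone variant of centromeres, read 5552, 4760.3 and 4856 against 4702, 5242 and 4945 (log2 change -0.025, SE 0.084). The condensin gene Ncapg had 0.18 (SE 0.12), Cad, of pyrimidine synthesis, -0.062 (SE 0.14), and Bod1l, which protects replication forks, 0.068 (SE 0.14). Tacc3, a spindle protein, had probe sets in both directions. Its 1455834_x_at read 475, 500.0 and 396 against 273, 402 and 361, a log2 change of -0.40 (SE 0.17, limma adjusted p = 1.00) that was -0.25 without B.D(Chr5) replicate 1. For 1436872_at the log2 change was 0.46 and for the brightest -0.12. The summed signal of 19 cell cycle genes ran from 107138 to 114889 in C57B/L6 and from 112802 to 115600.0 in B.D(Chr5). Mapre3, a microtubule end-binding protein, was above background on 1 array.

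Of the genes of translation, proteins and RNA, 0 of 6 had a probe set at an unadjusted p under 0.05 in limma. The phosphatase gene Ppm1g read 6679, 5645 and 6798 in C57B/L6 and 5967, 6414 and 5771 in B.D(Chr5) (log2 change -0.071, SE 0.089). Eif2b4, a subunit of the exchange factor of translation initiation, read 2684, 2149 and 2872 against 2316, 2732 and 2616 (log2 change -4.4e-04, SE 0.12). Those arrays overlap fully. Maea, of an E3 ligase complex and of erythroblast islands, had -0.0027, the aminopeptidase gene Lap3 -8.8e-04, Agbl5, which trims glutamates from tubulin, -0.11, and Cpeb2, a regulator of message polyadenylation, 0.29 (SE 0.19).

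In chromosome order, the first 19 tested members, from Hadha to Slbp, held no probe set at an unadjusted p under 0.05 in limma. Of all named genes, 7.81% reached that level on at least 1 probe set. Of the 48 tested members, 8 (16.7%) reached it. Tacc3 and Mxd4 followed the first 19, and the other 6 such members lay among the 19 tested members from Afap1 to Lcorl. This split was drawn after the values were seen and was not tested. All annotated genes of the stretch with a tested probe set numbered 102, which adds 54 to those listed. Lcorl was the 1 called gene among the 102, against 0.223% of all named genes. Of the added 54, 28 were higher and 26 lower, with a median log2 change of 0.0049, and limma called 0 of them, with 4 at an unadjusted p under 0.05, namely Emilin1, Jakmip1, Clnk and Cc2d2a. Those 4 make 7.41%, near the 7.81% of all named genes. Emilin1 lies between Hadha and Slbp, so that part was without such genes only among the members. Of the 50 tested genes before Il6, 3 were called in limma, namely AI506816 with a log2 change of 5.14, Pus7 with 0.86 and Dnajc2 with -1.35, and 14 (28.0%) had an unadjusted p under 0.05. The Dnajc2 call came from a dimmer probe set, and its brightest had a log2 change of -0.071 (limma adjusted p = 1.00). Without any one of C57B/L6 replicates 1, 2 and 3 or B.D(Chr5) replicate 1, the count of 3 was 1. Of the 50 after Lcorl, 0 were called and 7 (14.0%) had an unadjusted p under 0.05. These names outside the list were taken after their values were seen.

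**Figure D5:**
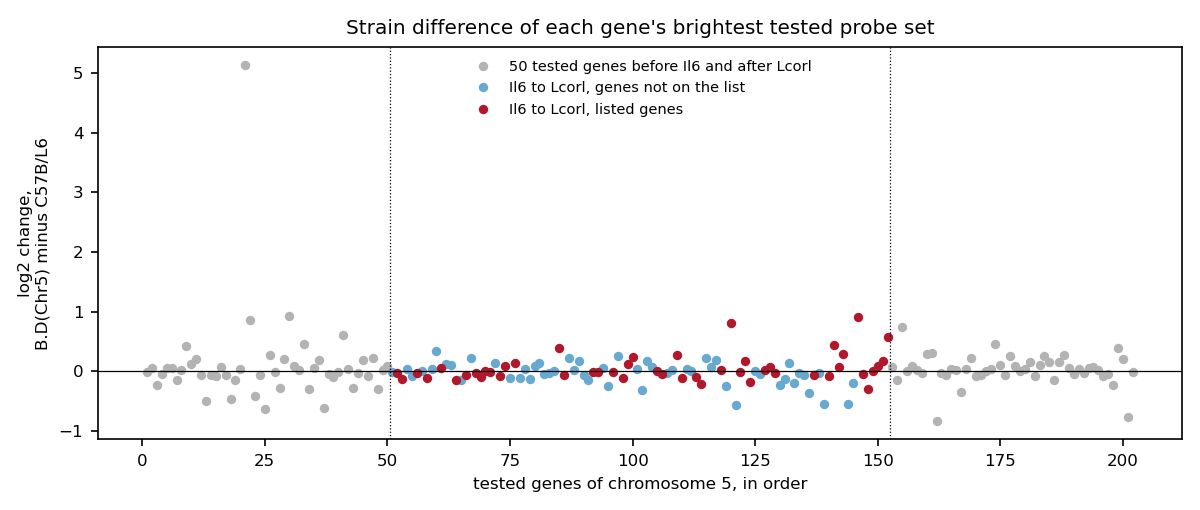
Log2 change of the brightest tested probe set of each gene, for the 102 genes of the stretch between the dotted lines and 50 on either side, in chromosome order. The listed genes stay between -0.30 and 0.91, and the single point above 5 is AI506816, before Il6. Some calls rest on dimmer probe sets, which are not plotted.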

How the data were processed

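RNA from lineage-negative bone marrow was measured on 6 one-colour Affymetrix arrays, 3 per strain. The authors deposited a linear intensity for each probe set and used MAS5, per the submitters' processing notes. Which version and settings they chose is not given in the sources used here. These intensities show a common trimmed mean of 500.003 on each array. Probe sets were matched by platform symbol or current synonym, updated through the RefSeq annotation of GRCm38.p6. No build comes with the values, so that annotation supplied only names and gene order. Of 45101 probe sets, 64 controls were left out.

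Intensities were turned into log2(signal + 16), and the 50% of probe sets with the highest mean log2 value, 22518 in all, were fitted in limma 3.58.1 (R 4.3.3; lmFit, eBayes with trend, two-sided), with strain as the only term. P-values were adjusted by Benjamini-Hochberg over all of them. The code was tested on simulated data. Background was the 95th percentile, on the same array, of 27 control probe sets for bacterial genes. The number of arrays limits the precision. Replicate numbers did not pair the arrays.

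The genes, their roles and the marker lists were chosen with earlier results of these data known. Given in full were called genes, those at an unadjusted p under 0.05, Il6, Fgfr3, Bst1 and Prom1, and the 2 brightest of each role. Cd38 was also listed and is not analysed here, because the annotation used names no probe set for it. Alternatives covered pseudocounts of 1 and 64, the filter, quantile normalization, median centring, eBayes without trend, the replicate block, probe sets ending in _x_at or _s_at, averaging the probe sets of a gene, the controls' maximum as background, and leaving out each array.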

Additional observations from a re-analysis of the deposited data

How the results depend on the processing

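Lcorl 1439272_at was called in all 14 alternatives in which it was fitted, with log2 changes from 1.55 to 2.05 and adjusted p from 4.19e-06 to 0.0152. The count of called members and of called genes in the stretch was 1, except without B.D(Chr5) replicate 2, where Afap1 made both 2. Over single arrays left out these counts ran from 1 to 2, while calls in the whole table ran from 21 to 73. Called genes among the 50 before Il6 numbered 3, 2 without the filter, 2 without the trend, 1 with the replicate block and 1 to 3 with single arrays left out. Same-numbered arrays of the strains had deviations correlated at -0.11, -0.20 and 0.20, so the numbers do not pair them. C57B/L6 replicate 1 with B.D(Chr5) replicate 2 reached 0.30, and C57B/L6 replicate 2 with B.D(Chr5) replicate 1 reached 0.26. The remaining differently numbered pairs were negative. With both replicates 3 at 0.20, the positive pairs take in each array once. Signals of the 18S control ran in the same order over these pairs. They were 13058, 2454 and 6306 in C57B/L6 replicates 1, 2 and 3 and 1726, 20010 and 12554 in those of B.D(Chr5). Neither the fit with strain as the only term nor the replicate block, which follows the numbers, used such a match. The SEs and p-values here take no account of it, and its source was not tested. With the replicate block 27 probe sets of the table were called, against 41, and 1 member. With single arrays left out, log2 changes near 0 crossed it, none of them called in any of these fits. They ran from -0.030 to 0.013 for Snx17, -0.032 to 0.075 for Mrfap1, -0.068 to 0.051 for Ctbp1, -0.059 to 0.016 for Slbp, -0.066 to 0.044 for Cenpa, -0.12 to 0.085 for Eif2b4 and -0.030 to 0.22 for Nrbp1. The members' median stayed between -0.019 and 0.015 over all alternatives. Calls in the whole table, 41 as reported, numbered 67 with median centring, 25 without the trend, 23 without _x_at and _s_at probe sets, and 21 to 73 with single arrays left out. The causes were not tested. Probe sets near background, such as those of Il6, Bst1 and Fgfr3, were tested only in the fit without the filter, and signal over background limits what they can show.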
